A study of Chlamydomonas reinhardtii with 12 samples.

Results

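This section describes 7 genes of phosphate acquisition and storage in the green alga Chlamydomonas reinhardtii, out of 17741 gene IDs counted. They were taken by ID: PSR1 (Cre12.g495100), the alkaline phosphatase PHOX (Cre04.g216700), VTC1 (Cre12.g510250) and 4 sodium/phosphate symporter genes of the PTB family (Cre07.g325740, Cre07.g325741, Cre02.g144650 and Cre02.g144750). The names come with this list of IDs. The reference table used here matched all 7 IDs to a locus tag but paired 0 of them with a symbol. All 7 passed the filter on low counts, which left 15286 genes to be tested.

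Polyadenylated RNA was sequenced from wild-type cells and from vip1-1, a mutant that the series text describes as deficient in inositol pyrophosphates. The labels give strain CC-1690 for both genotypes and name no other allele. Both were grown in liquid TAP medium, the usual acetate medium for this alga, at 25 °C under a photon flux of 50 µmol m-2 s-1. The control is 24 h of growth and nutritional stress is 14 days of it, so "stress" means an old culture, and culture age and nutrient state cannot be told apart. The labels do not say which nutrient ran out. Each of the 4 groups had 3 libraries that the labels call biological replicates.

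Chlamydomonas cells short of phosphate switch on a set of genes through PSR1, a MYB-type transcription factor. Among its known targets are secreted phosphatases, which free phosphate from organic molecules outside the cell, and high-affinity transporters that import it. Surplus phosphate is stored as polyphosphate, which is made by the VTC (vacuolar transporter chaperone) complex. In yeast and land plants, inositol pyrophosphates bind SPX-domain proteins and so report the phosphate status of the cell. The study set the mutant beside the wild-type to ask what these molecules do in the response to nutrient limitation.

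The libraries differed in usable depth. Total counts ranged from 9749837 to 28833327, but 6 abundant features held between 0.561% and 71.0% of them. This left from 2829344 counts in wild-type control replicate 1 to 27921445 for the remaining genes. In control, these features held 71.0%, 14.6% and 9.32% in wild-type and 4.85%, 3.16% and 0.561% in vip1-1. The remaining counts were 2829344 to 19804883 in wild-type control and 20119703 to 27921445 in vip1-1 control. Usable depth and genotype thus went together in control, without overlap, and cannot be told apart there. Under stress both measures overlapped between the genotypes. The value of 3 counts, used here as the one-sided 95% limit of a count of 0, ranged from 0.0769 to 0.892 CPM (counts relative to library size, scaled with the trimmed mean of M values, TMM). Replicate 3 of both control groups stood apart from replicates 1 and 2 for some of the genes below, and their deviations from the group means correlated across all genes at 0.403. No check of the mutant's own gene was made, since the table gives no names.

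PSR1, the regulator, was higher in old than in fresh wild-type cultures, and its CPM values in vip1-1 lay above those of wild-type in both conditions. In wild-type it measured 5.06, 11.2 and 10.02 CPM in control replicates 1 to 3 and 44.8, 38.8 and 11.7 CPM in stress replicates 1 to 3. In CPM the groups did not overlap, but stress replicate 3 lay just above the highest control. In the deposited FPKM (fragments per kilobase, scaled to the library total) the groups overlapped. There stress replicate 3 (1.83) lay below control replicates 2 and 3 (2.30 and 2.61). PSR1 rose 3.54-fold in wild-type (log2 fold change 1.83, SE 0.45, 95% interval 0.83 to 2.82, Benjamini-Hochberg adjusted p = 0.0126 over all genes in edgeR's quasi-likelihood test). The lowest value, 5.06 CPM, rests on 17 counts (exact 95% Poisson interval 9.90 to 27.2, counting error only). The adjusted p was 0.0506 without that library, 0.0504 and 0.0559 without wild-type stress replicates 1 and 2, 0.0893 when only the wild-type groups were fitted, and 0.144 when libraries were scaled by their totals. The estimates in these fits ran from 1.46 to 1.73 on the log2 scale.

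In vip1-1, PSR1 stood at 19.0, 17.7 and 28.5 CPM in control and at 55.6, 52.3 and 48.4 CPM in stress. All 3 stress libraries lay above all 3 controls, and their spread was narrow. The log2 fold change was 1.26 (SE 0.44), which missed the threshold in the edgeR quasi-likelihood test (adjusted p = 0.0582). It passed in 5 of 23 alternatives, DESeq2 among them (adjusted p = 0.0229). Another was the edgeR fit to the vip1-1 groups alone (1.18, SE 0.23, adjusted p = 0.00846), whereas the fit to the wild-type groups alone did not call PSR1. The responses of the genotypes were not distinguished, with a difference (vip1-1 minus wild-type) of -0.56 on the log2 scale and a 95% interval from -1.91 to 0.79.

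In CPM, PSR1 was higher in every vip1-1 library than in every wild-type library of the same condition. In the deposited FPKM this held in control, while under stress vip1-1 replicate 3 (8.83) lay below wild-type replicate 1 (10.98). The control means were 21.7 ± 5.90 CPM for vip1-1 and 8.75 ± 3.25 CPM for wild-type (SD, n = 3 each), with a log2 fold change of 1.28 (SE 0.45). The adjusted p over all genes was 0.52 (edgeR's quasi-likelihood test), so PSR1 was not called. Under stress the means were 52.1 ± 3.58 and 31.8 ± 17.6 CPM (SD, n = 3 each), and the log2 fold change of 0.71 (SE 0.43) was not called either (edgeR adjusted p = 0.488). Without wild-type stress replicate 3 it was 0.31, and it ran up to 1.05 without wild-type stress replicate 1, with no call when any single library was left out (edgeR adjusted p 0.336 to 0.914). Averaged over both conditions, a comparison added with the values known, the genotype difference was 0.99 (SE 0.31, edgeR adjusted p = 0.153). It passed in 1 of 22 alternatives, which was DESeq2 (adjusted p = 0.0431).

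PHOX, a phosphatase that releases phosphate from organic esters, was close to absent in fresh cultures and low but present in all old ones. In wild-type it had 0, 0 and 41 counts in control and 129, 78 and 137 counts in stress. In CPM the controls were at 0, 0 and 1.51 and the stress libraries at 7.53, 9.62 and 12.9. With that limit the 0 counts allow up to 0.892 CPM in control replicate 1 and 0.219 CPM in replicate 2, and replicate 3 exceeded both. PHOX rose in wild-type with a log2 fold change of 3.94 (SE 0.97, edgeR quasi-likelihood adjusted p = 0.0125).

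The size of that change depends on control replicate 3. Without it the remaining controls hold no count, and the fold is only bounded: the stress mean is at least 18.0-fold higher than 3 counts per control library. The fitted value without that library (10.60 on the log2 scale) depends on the prior count and is no measure of size. The adjusted p was 0.11 with only the wild-type groups in the fit and 0.0685 with libraries scaled by their totals.

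In vip1-1, PHOX measured 1.11, 1.87 and 1.49 CPM in control and 5.79, 7.49 and 9.51 CPM in stress. The groups did not overlap, and the log2 fold change was 2.34 (SE 0.88, edgeR quasi-likelihood adjusted p = 0.0771). This passed in 6 of 22 alternatives. Among these were the fits without wild-type control replicate 2 (adjusted p = 0.0262) and without replicate 3 (adjusted p = 0.00222), with DESeq2 at 0.0209. The edgeR fit to the vip1-1 groups alone also passed (2.26, SE 0.33, adjusted p = 0.00304), whereas the fit to the wild-type groups alone did not call PHOX. The genotypes overlapped under stress, where wild-type averaged 10.002 ± 2.68 CPM and vip1-1 averaged 7.60 ± 1.87 CPM (SD, n = 3 each). In control, all 3 vip1-1 libraries were above the 2 wild-type libraries at 0, and wild-type replicate 3 lay among them. The genotype difference in control was called only in fits without that library (edgeR adjusted p = 0.00521 without it and 0.0106 without both control replicates 3), where wild-type is at 0 and vip1-1 is at least 2.68-fold higher than 3 counts per library. The same fits called the difference of the responses (edgeR adjusted p = 0.00979 and 0.0176), which was not called with all libraries (adjusted p = 0.785).

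**Figure D1:**
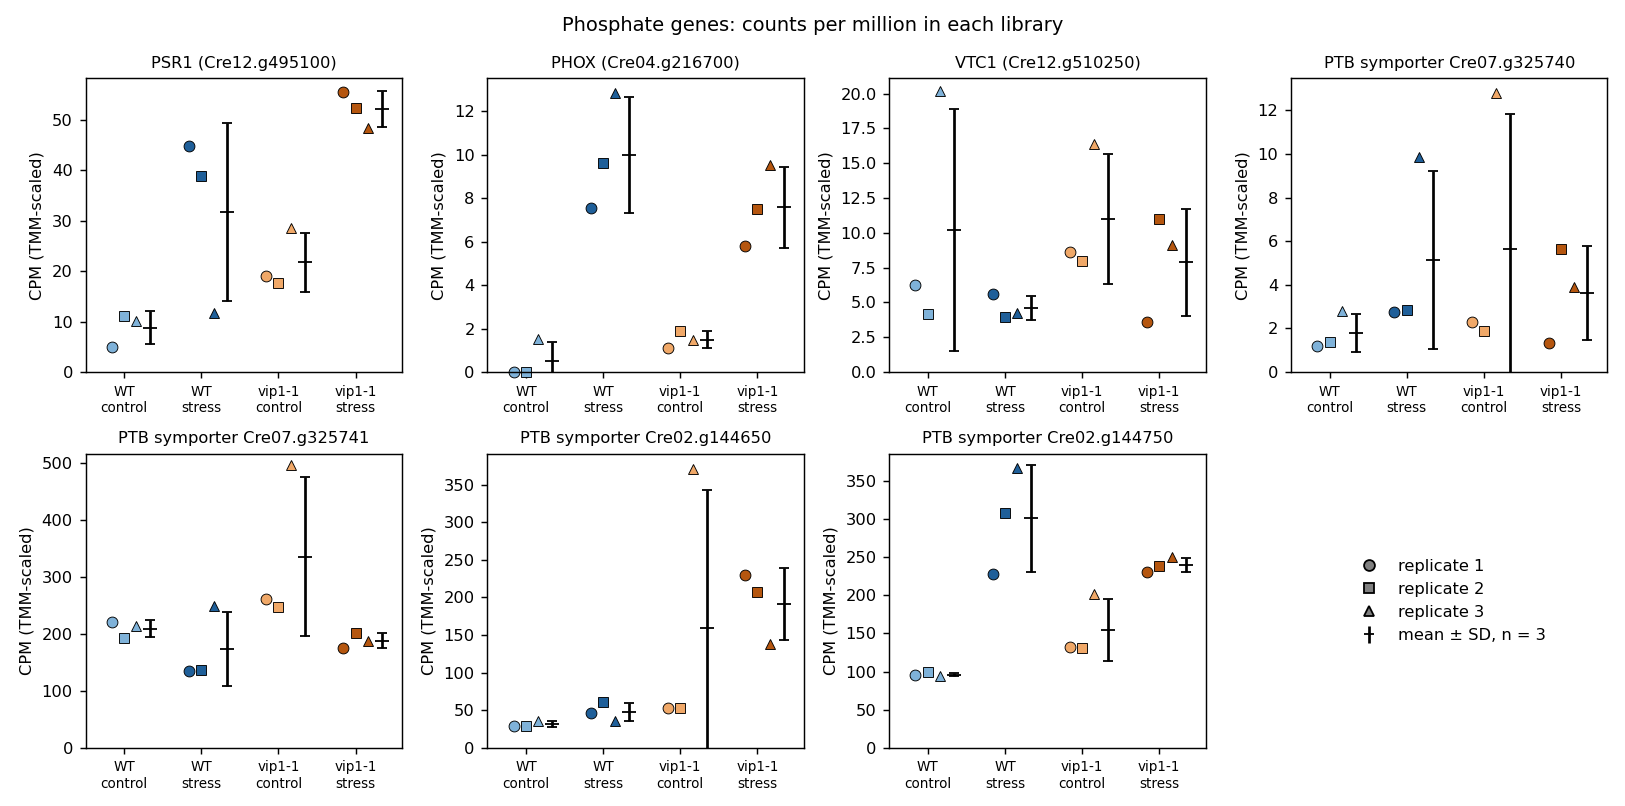
TMM-scaled CPM (linear axes from 0) of the 7 genes in each library, by group, with marker shapes for replicates 1 to 3 and bars for the mean ± SD (n = 3, cut off at 0). PSR1, PHOX and Cre02.g144750 lie higher in all stress libraries than in all controls of the same genotype, and replicate 3 of the vip1-1 control stands at 371 CPM for Cre02.g144650 against 52.8 and 52.9 in replicates 1 and 2.

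The PTB symporters, which import phosphate together with sodium, did not all pass the edgeR test. It called 1 of 4 for stress in wild-type, where it called 26% of all genes, and 0 of 4 in vip1-1, where it called 23.2%. Cre02.g144750, the called one, had the lowest adjusted p of the 7 genes. In wild-type it measured 95.2, 98.8 and 94.0 CPM in control and 228, 308 and 367 CPM in stress. The control values lay within a few percent of each other, and the lowest stress library was more than double the highest control. Cre02.g144750 rose with a log2 fold change of 1.65 (SE 0.24, edgeR quasi-likelihood adjusted p = 0.000662). This call held without each single library, with adjusted p between 0.000358 and 0.00485 (edgeR), and was lost only when libraries were scaled by their totals (adjusted p = 0.0976).

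In vip1-1 the same gene stood at 132, 131 and 202 CPM in control and at 231, 238 and 250 CPM in stress. The groups did not overlap, with control replicate 3 nearest to the stress libraries. The log2 fold change was 0.63 (SE 0.24, edgeR quasi-likelihood adjusted p = 0.0785), and 0.87 without vip1-1 control replicate 3, where it passed (adjusted p = 0.0225). This was 1 of 5 passes in 23 alternatives. With all libraries it passed in DESeq2 (adjusted p = 0.0456), in limma voom with sample quality weights (2.43e-05) and in edgeR with at least 10 counts in every library (0.0475). The response was smaller in vip1-1 than in wild-type by 1.02 on the log2 scale (95% interval of the difference, vip1-1 minus wild-type, -1.75 to -0.29, edgeR unadjusted p = 0.0106). Over all genes this difference was not called (adjusted p = 0.469). The vip1-1 controls lay above all wild-type controls (log2 fold change 0.69, SE 0.24, edgeR adjusted p = 0.506), while under stress the genotypes overlapped (-0.33, SE 0.24, edgeR adjusted p = 0.586). When libraries were scaled by their totals, the sign under stress was reversed (0.30, edgeR adjusted p = 0.86).

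Cre02.g144650 had higher CPM in vip1-1 than in wild-type in both conditions, without overlap. In control it measured 29.4, 28.3 and 35.6 CPM in wild-type and 52.8, 52.9 and 371 CPM in vip1-1. Under stress it measured 46.2, 60.8 and 36.0 CPM in wild-type and 229, 207 and 138 CPM in vip1-1. No wild-type library reached any vip1-1 library of the same condition. Under stress every vip1-1 value was more than double the highest wild-type value.

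The genotype difference of Cre02.g144650 was 2.35 on the log2 scale in control (SE 0.66, edgeR adjusted p = 0.284) and 2.00 under stress (SE 0.65, edgeR adjusted p = 0.157), and neither was called. Averaged over both conditions it was 2.18, or 4.52-fold (SE 0.46, edgeR adjusted p = 0.0363). This added comparison was chosen with the values known. It missed the threshold with the replicate block (2.06, adjusted p = 0.0825) and in 8 of 12 fits without a single library, namely wild-type control replicate 1 or 2 and each of the stress libraries (adjusted p 0.0708 to 0.0961).

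Vip1-1 control replicate 3 sets the size in control. Without it the control difference of Cre02.g144650 was 0.76 in place of 2.35 on the log2 scale (edgeR adjusted p = 0.616), below that of PSR1 (1.03) in the same fit. The stress difference was again 2.00 and was called (edgeR adjusted p = 0.00522), and the average was 1.38 (adjusted p = 0.0054). The stress response within vip1-1 was 0.27 with all libraries (SE 0.62, edgeR adjusted p = 0.809) and 1.86 without that control (adjusted p = 0.0021). In wild-type it was 0.61 (SE 0.63, edgeR adjusted p = 0.512).

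The reference table places Cre02.g144700 and Cre02.g144734 between Cre02.g144650 and Cre02.g144750. Neither has a name or role in the sources used here. Cre02.g144700 was low and showed the same high libraries as Cre02.g144650. Its vip1-1 libraries held 31, 75 and 913 counts in control and 340, 798 and 381 under stress. Its wild-type libraries held 0, 0 and 61 counts in control and 115, 53 and 117 under stress. Its genotype differences were 3.38 (SE 1.30) in control and 1.59 (SE 1.16) under stress on the log2 scale, and neither was called (edgeR adjusted p = 0.597 and 0.596). In vip1-1 control, Cre02.g144734 held 0, 30 and 161 counts, and Cre02.g144600, on the other side of Cre02.g144650, held 10, 8 and 361. Under stress in vip1-1 they held 0, 265 and 157 and 20, 283 and 58 counts. Their highest wild-type counts were 14 for Cre02.g144734 and 22 for Cre02.g144600. Whether reads of neighbouring genes were separated by strand is not given in the sources used here. Over the 17 tested genes among the 22 that lie within a pair of positions of a member, 5 were called for stress in wild-type and 2 in vip1-1, against 26% and 23.2% of all genes.

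Cre07.g325741 had the highest level per length of the 7 genes in control cultures. It measured 220, 193 and 214 CPM in wild-type control and 135, 136 and 248 CPM in wild-type stress, and these groups overlapped (log2 fold change -0.27, SE 0.31, edgeR adjusted p = 0.558). The overlap came from stress replicate 3 alone, and without it the wild-type estimate was -0.73 (SE 0.28, edgeR adjusted p = 0.0926). Limma voom with sample quality weights called the fall in wild-type (-0.57, SE 0.19, adjusted p = 0.0273), as 1 of 6173 genes it called there. In vip1-1 it measured 262, 247 and 496 CPM in control and 175, 202 and 187 CPM in stress. All vip1-1 stress libraries were below all controls, with a log2 fold change of -0.83 (SE 0.31, edgeR adjusted p = 0.0791). Without wild-type stress replicate 3 this was -0.97 and passed (edgeR adjusted p = 0.0168), and without vip1-1 control replicate 3 it was -0.44 (edgeR adjusted p = 0.301). In control every vip1-1 library lay above every wild-type library (0.68, SE 0.31, edgeR adjusted p = 0.775). That difference was 0.28 without vip1-1 control replicate 3.

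Its neighbour Cre07.g325740, with no gene between them in the reference table, was hardly expressed. Wild-type gave 4, 19 and 76 counts in control and 47, 23 and 105 under stress. For vip1-1 the counts were 64, 73 and 420 in control and 23, 156 and 62 under stress. In every group the highest library stood well above the lowest, and edgeR called no comparison of this gene. Limma voom with sample quality weights called it for stress in vip1-1 in the direction opposite to edgeR, at 1.12 on the log2 scale (SE 0.31, adjusted p = 0.00507) against -0.63 (SE 0.84). Without vip1-1 control replicate 3 the edgeR estimate was 0.80 (adjusted p = 0.55). Its estimate in wild-type was 1.46 on the log2 scale, with a 95% interval from -0.47 to 3.40, which spans no change and a several-fold increase. The 4 counts in wild-type control replicate 1 have an exact 95% Poisson interval from 1.09 to 10.2. The sequences of the 4 related symporters were not used here, so how far reads could have been split between them was not tested.

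VTC1, a subunit of the complex that makes polyphosphate, had low CPM in all groups. CPM is not scaled to length, and in FPKM VTC1 lay above PSR1 in 6 of 6 control libraries. Wild-type gave 6.25, 4.16 and 20.2 CPM in control and 5.61, 3.95 and 4.22 CPM under stress. For vip1-1 the values were 8.65, 7.97 and 16.4 CPM in control and 3.57, 10.96 and 9.13 CPM under stress. The highest libraries were replicate 3 of both controls, and the groups overlapped in all 4 comparisons. The log2 fold changes with stress were -1.17 in wild-type (95% interval -2.49 to 0.15, edgeR adjusted p = 0.178) and -0.48 in vip1-1 (-1.76 to 0.81, edgeR adjusted p = 0.623). Without wild-type control replicate 3 the estimate in wild-type was -0.14 (edgeR adjusted p = 0.861). Its genotype difference in control was 0.08, with an interval from -1.20 to 1.37.

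**Figure D2:**
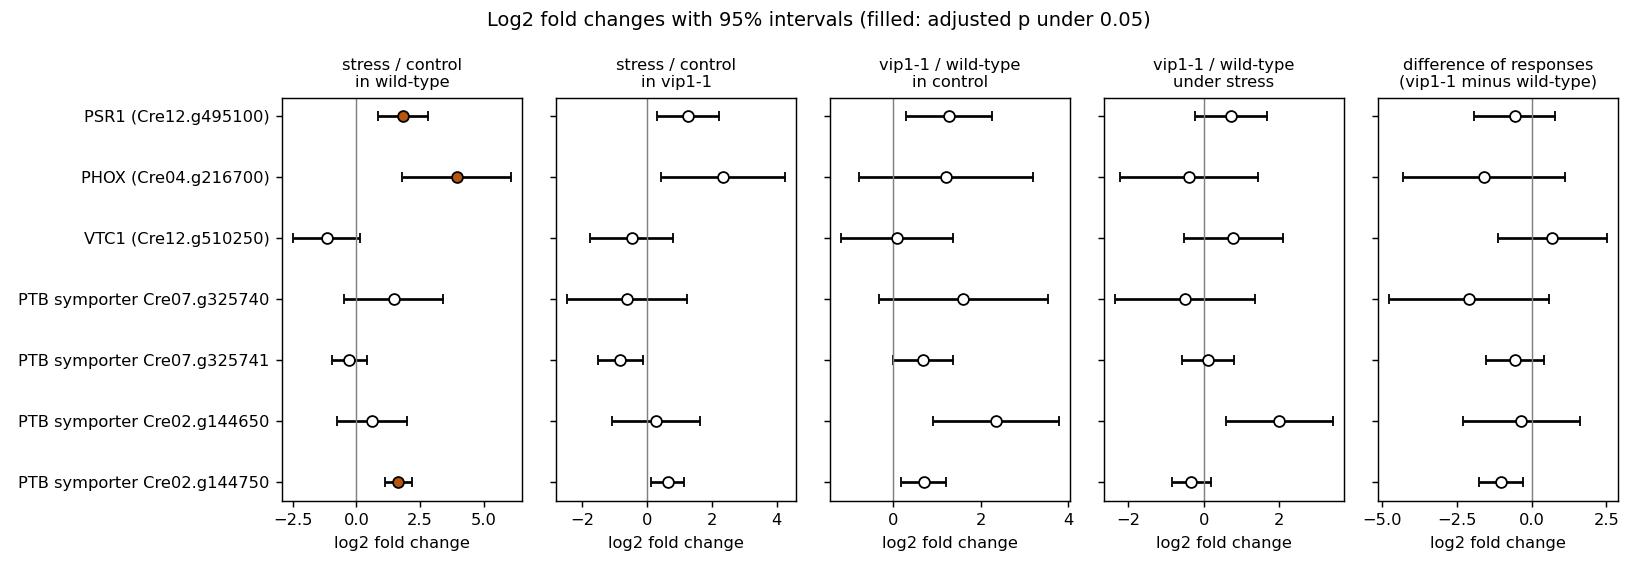
Log2 fold changes of the 7 genes (points) with 95% intervals (bars) in 5 comparisons from 1 edgeR fit to all 12 libraries, filled where the adjusted p was under 0.05. PSR1 (1.83), PHOX (3.94) and Cre02.g144750 (1.65) are filled for stress in wild-type, and no other point is filled.

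The counts of members called were set beside those of all tested genes. For stress in wild-type, 3 of 7 members were called, all higher, while 26% of all genes were called and 13.9% were called higher. The members' median log2 fold change was 1.46, and that of all genes was 0.19. For stress in vip1-1, 0 of 7 were called by edgeR, against 23.2% of all genes, and 4 had an unadjusted p under 0.05. DESeq2 called 3 of 7 members and 31.4% of all genes, and limma voom with sample quality weights called 6 of 7 and 66.9%. The medians there were 0.27 for the members and 0.09 for all genes.

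Between the genotypes, edgeR called 0 of 7 members in control, against 0.255% of all genes, and 3 had an unadjusted p under 0.05. DESeq2 called 1 (1.84% of all genes) and limma voom with sample quality weights 0 (2.31%). Under stress edgeR called 0 of 7, against 1.56% of all genes, with 1 member at an unadjusted p under 0.05, while DESeq2 called Cre02.g144650 (7.06% of all genes) and limma voom called it, VTC1 and Cre07.g325741 (26.3%). The added average over both conditions called 1 member by edgeR, against 1.94% of all genes. The difference of the responses was called by edgeR for 0 of 7 members, against 0.0393% of all genes. Its only member with an unadjusted p under 0.05 was Cre02.g144750, and DESeq2 and limma voom also called 0 (1.45% and 3.26% of all genes).

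Groups that do not overlap in CPM were counted as well. For stress in wild-type 4 of 7 members had no overlap, against 42.4% of all genes, and in vip1-1 it was also 4 of 7, against 53.4%. For vip1-1 against wild-type in control, 4 of 7 members lay higher in all vip1-1 libraries (PSR1, Cre07.g325741, Cre02.g144650 and Cre02.g144750), where 8.18% of all genes did. Under stress 2 of 7 did (PSR1 and Cre02.g144650), where 17.7% of all genes did. The median genotype difference in control was 1.20 on the log2 scale for the members and 0.11 for all genes. Under stress it was 0.12 and 0.05. Each group enters 2 of these comparisons, so they share libraries. The control median is PHOX's own value (SE 0.91, edgeR adjusted p = 0.945), with wild-type counts of 0, 0 and 41. Without vip1-1 control replicate 3 the estimates were 1.03 for PSR1, 1.19 for PHOX and -0.32 for VTC1. For Cre07.g325740, Cre07.g325741, Cre02.g144650 and Cre02.g144750 they were 0.17, 0.28, 0.76 and 0.45. Usable depth also differed between the control groups, as given above.

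**Figure D3:**
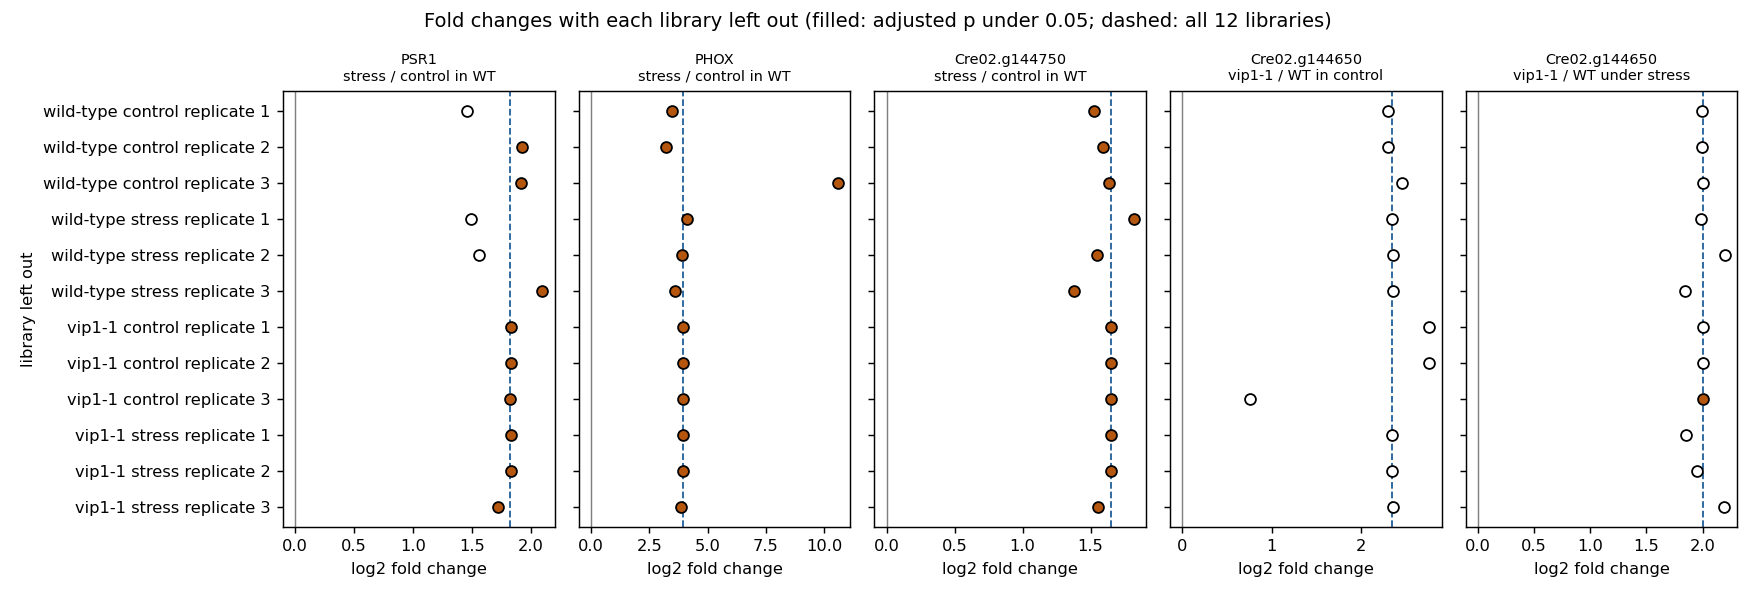
Log2 fold changes (horizontal axes) of PSR1, PHOX and Cre02.g144750 for stress in wild-type and of Cre02.g144650 between the genotypes, each fitted without the library named on the vertical axis; dashed lines mark the value with all 12 libraries, and filled points have an adjusted p under 0.05. PHOX without wild-type control replicate 3 (10.60) rests on controls at 0 counts, and Cre02.g144650 in control moves from 2.35 to 0.76 without vip1-1 control replicate 3.

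Levels of different genes were compared with the deposited FPKM, which is scaled to transcript length. FPKM is divided by a library total that includes the 6 abundant features, so the SDs across libraries are wide and the order within a library was read as well. The wild-type control means were 50.1 ± 27.2 FPKM for Cre07.g325741, 26.8 ± 14.4 for Cre02.g144750, 7.33 ± 4.58 for Cre02.g144650 and 7.33 ± 8.95 for VTC1 (SD, n = 3 each). PSR1 (1.76 ± 1.22 FPKM), Cre07.g325740 (0.422 ± 0.401) and PHOX (0.107 ± 0.185) came below these (SD, n = 3 each). In old wild-type cultures Cre02.g144750 led at 78.6 ± 16.9 FPKM, ahead of Cre07.g325741 at 40.0 ± 15.6 and Cre02.g144650 at 10.4 ± 3.71 (SD, n = 3 each).

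In vip1-1 control the leading means were 126 ± 53.0 FPKM for Cre07.g325741, 67.4 ± 17.9 for Cre02.g144750 and 56.8 ± 65.8 for Cre02.g144650 (SD, n = 3 each). Under stress the order in vip1-1 was Cre02.g144750 (97.1 ± 22.8 FPKM), Cre02.g144650 (67.0 ± 30.9) and Cre07.g325741 (66.5 ± 17.9), then PSR1 (13.8 ± 4.44), VTC1 (6.67 ± 3.63), PHOX (1.57 ± 0.197) and Cre07.g325740 (1.10 ± 0.761, SD, n = 3 each). Cre02.g144650 and Cre07.g325741 did not differ there beyond their spread. Of the regulator and the polyphosphate gene, VTC1 had the higher FPKM in 6 of 6 control libraries and PSR1 in 5 of 6 stress libraries. The exception was wild-type stress replicate 3, where PSR1 was lowest for its group. Some of these values rest on few counts, with 17 for PSR1 and 21 for VTC1 in wild-type control replicate 1. VTC1 had 32 and 45 counts in wild-type stress replicates 2 and 3. How many other pairs of genes change order in this way was not counted. PHOX or Cre07.g325740 had the lowest FPKM of the 7 genes in all 12 libraries.

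Ratios of 2 genes within a library do not depend on how libraries are scaled. They were chosen with the values known and are given without a test. The order of the leading pair of symporters changed with culture age in both genotypes. Cre07.g325741 had the highest FPKM of the 7 genes in 3 of 3 libraries of each control group, and Cre02.g144750 in 3 of 3 libraries of each stress group. The ratio of Cre07.g325741 to Cre02.g144750 was 2.01, 1.70 and 1.97 in wild-type control and 0.515, 0.382 and 0.586 in wild-type stress. In vip1-1 it was 1.72, 1.64 and 2.13 in control and 0.658, 0.736 and 0.650 in stress. Such a fall against Cre02.g144750, without overlap in either genotype, was shown by 39% of the 10535 genes with FPKM above 0 in all libraries, so that change of order is near the background.

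The ratio of Cre02.g144650 to Cre02.g144750 separated the genotypes. In wild-type it was 0.254, 0.236 and 0.311 in control and 0.167, 0.162 and 0.0806 in stress. In vip1-1 it was 0.329, 0.332 and 1.51 in control and 0.817, 0.712 and 0.455 in stress. All vip1-1 values were above all wild-type values, narrowly in control and by a wide margin under stress. Of those 10535 genes, 0.256% had a ratio to Cre02.g144750 that was higher in vip1-1 in both conditions without overlap. Cre02.g144750 itself lay higher in all vip1-1 controls than in all wild-type controls, which lowers ratios to it there. The pair was also chosen with the values known, so this share does not measure how rare such a ratio is.

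**Figure D4:**
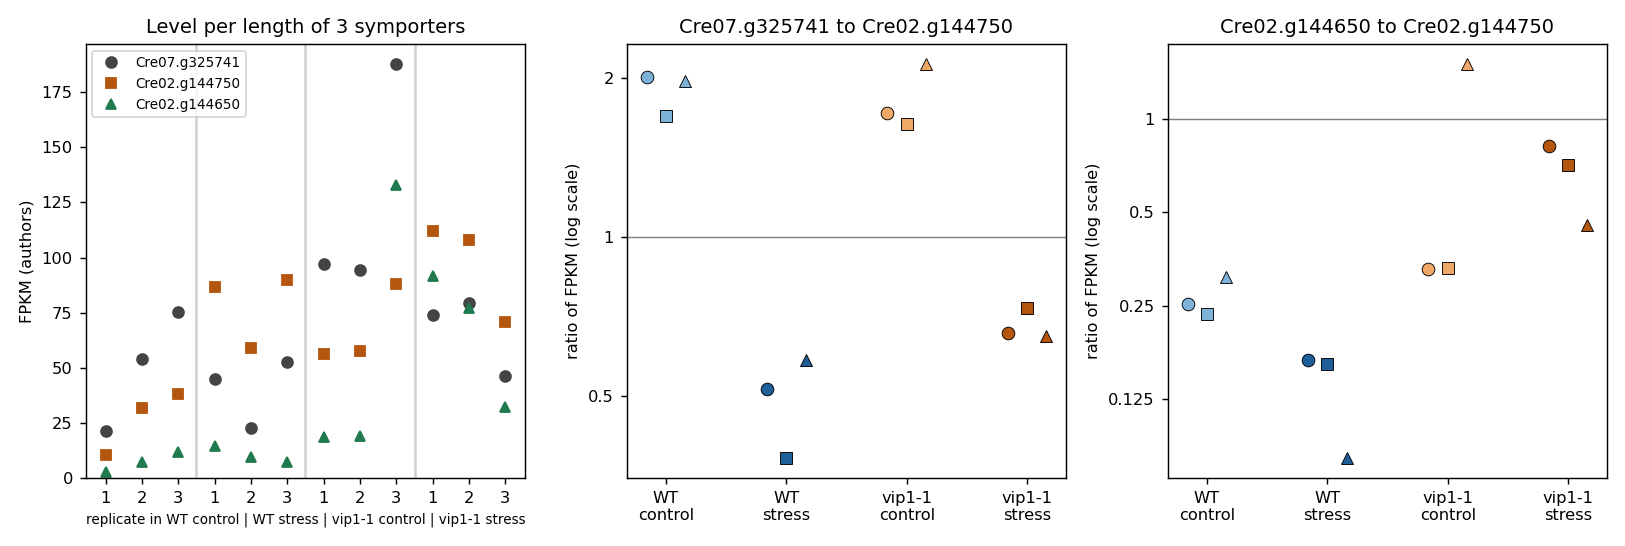
Left, deposited FPKM (linear axis from 0) of 3 PTB symporters in each library; middle and right, the ratio of FPKM of a pair of them within each library (log axis, marker shape by replicate). The ratio of Cre07.g325741 to Cre02.g144750 lies above 1 in all controls and below 1 in all stress libraries, and the ratio of Cre02.g144650 to Cre02.g144750 is higher in vip1-1, from 0.329, than in wild-type, up to 0.311.

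The 7 genes were also compared by profile. Each gene's log2 CPM was centred on its mean over the 12 libraries, and the root mean square difference between profiles was taken as the measure of likeness (0 is identical). The members did not share 1 profile. PSR1 was nearest to Cre02.g144750 (0.81) and Cre02.g144650 (0.86) among the members. PHOX lay between 1.71 (PSR1, its nearest) and 2.49 from the other members, where the median distance of all genes from PHOX was 2.30. VTC1 was nearest to Cre07.g325741 (0.64).

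Among all other tested genes, the 3 nearest to PSR1 were Cre10.g447767 (0.29), Cre03.g187500 (0.32) and Cre12.g546450 (0.33), where the median distance of all genes from PSR1 was 1.31. Cre03.g187500, for example, averaged 34.2 and 101 CPM in fresh and old wild-type cultures and 67.7 and 161 CPM in those of vip1-1. The nearest gene was Cre03.g152000 for PHOX (0.28), Cre07.g329800 for VTC1 (0.27), Cre01.g052250 for Cre07.g325741 (0.21), Cre06.g302450 for Cre02.g144750 (0.23), Cre12.g489150 for Cre07.g325740 (0.45) and Cre10.g456100 for Cre02.g144650 (0.52). Cre10.g456100 averaged 13.0 and 11.4 CPM in fresh and old wild-type cultures and 32.6 and 53.6 CPM in those of vip1-1. None of these genes has a name in the table used here.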

How the data were processed

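RNA was measured in 12 libraries (2 genotypes by 2 culture ages, n = 3 each), grouped by their titles. The authors deposited whole-number counts per gene and FPKM values for 17741 IDs. Per the labels, libraries followed Illumina's TruSeq Stranded mRNA protocol. The submitters' processing notes name HISAT2 and StringTie. The genome build, annotation, strand setting and the step that gave whole-number counts are not given in the sources used here, so no coordinates are printed.

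Counts were tested with edgeR 4.0.16 in R 4.3.3 (filterByExpr by group, TMM, 1 group-means fit to all libraries, robust quasi-likelihood test, Benjamini-Hochberg adjustment over 15286 genes, called at an adjusted p under 0.05). Each SE was obtained as the size of the log2 fold change over the root of F. Ratios and level comparisons used the deposited FPKM without a test. Alternatives, with DESeq2 1.42.0 and limma 3.58.1 among them, are given in the closing section. P-values measure only the spread between these libraries. Intervals on counts cover counting error only.

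All 7 members are reported, and the members, lists and added comparisons were chosen with earlier results of these data known. The rule for naming other genes took the 3 nearest profiles to PSR1 and the nearest to each other member (log2 CPM with a prior count of 2). A wider phosphate list was to be drawn from annotation text, and it held 0 genes because the reference table has no product names. Neighbouring genes came from the gene order of the assembly Chlamydomonas_reinhardtii_v5.5, whose locus tags matched 17738 IDs. Same-numbered control libraries deviated together (correlations 0.157, 0.185 and 0.403, all over 0.1), so the numbers were taken as pairing the control groups, from the data and not from the labels. No other pair of groups met that rule.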

Additional observations from a re-analysis of the deposited data

How the results depend on the processing

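For single members, 863 of 947 alternative values kept their direction and side of the threshold, 40 passed it newly, 17 lost it and 27 were reversed. The tally includes fits without a library outside the comparison, where an estimate can hardly move. It also includes values that were not called in either fit, so the large share kept is no measure of robustness. Of the 7 members, stress in wild-type called 3, but 0 with library totals alone, 1 with only the groups compared, 4 with limma voom and 2 to 3 with each library left out. Stress in vip1-1 called 0, but 2 with at least 10 counts in every library or with only the groups compared, 3 with DESeq2, 6 with limma voom and 0 to 2 with a library left out. Without both control replicates 3 it called 3, and without wild-type control replicate 1 and vip1-1 control replicate 3 it called 1 (both chosen after seeing the data). The genotype comparison in control called 0, but 1 with DESeq2 and without both control replicates 3, and 0 to 1 with a library left out. Under stress it called 0, but 1 with only the groups compared, with DESeq2 and in both added fits, 3 with limma voom, and 0 to 1 with a library left out. The difference of responses called 0, but 1 without both control replicates 3, and 0 to 1 with a library left out. Over all genes, calls ranged over the alternatives from 1035 to 6173 (main 3979) and 904 to 10225 (main 3544) for stress in wild-type and vip1-1, from 0 to 849 (main 39) and 53 to 4023 (main 239) between genotypes in control and stress, and from 0 to 499 (main 6) for the difference.

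The replicate block changed no call of a member in the 5 planned comparisons; it ended the call of Cre02.g144650 in the added average (2.06, adjusted p = 0.0825). The block fitted to the control libraries alone called 0 members between genotypes.

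The cause of the reversed values, all log2, was not tested. With limma voom, stress in vip1-1 gave 0.18 for Cre12.g510250 and 1.12 for Cre07.g325740 (called there, adjusted p = 0.00507), the stress genotype difference gave 0.61 for Cre07.g325740, and the difference of responses gave 0.23 for Cre07.g325740, 0.14 for Cre07.g325741 and 0.63 for Cre02.g144650. Library totals alone gave stress genotype differences of 0.18 for Cre04.g216700, 0.11 for Cre07.g325740 and 0.30 for Cre02.g144750. Without both control replicates 3, Cre07.g325740 in vip1-1 gave 0.80 and the difference for Cre02.g144650 gave 1.13. Without wild-type control replicate 1 and vip1-1 control replicate 3, the values were 0.65 and 1.25, -0.54 for Cre12.g510250 between genotypes in control, and -0.26 for Cre07.g325740 in the average. With single libraries left out, the range was -1.11 to 0.80 for Cre07.g325740 and -0.15 to 1.86 for Cre02.g144650 (stress in vip1-1), -0.32 to 1.11 for Cre12.g510250 (genotype, control), -0.97 to 0.38 for Cre07.g325740 and -0.053 to 0.47 for Cre07.g325741 (genotype, stress), -0.33 to 1.10 for Cre12.g510250 and -0.76 to 1.24 for Cre02.g144650 (difference), and -0.16 to 0.99 for Cre07.g325740 (average). Asking for 10 counts in each library drops Cre04.g216700 and Cre07.g325740. The planned motif search in promoters was not run, since no promoter sequences were used here. Depth limits PHOX and Cre07.g325740, whose lowest counts are 0 and 4.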
